A study of Mus musculus with 8 samples.

Results

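Stem and progenitor cells of 2 moribund double-mutant mice were compared, 1 mouse with myelodysplastic syndrome (MDS) and 1 with MDS and myeloid leukemia (MDS/ML). Each mouse was read on 1 of the 8 arrays of the series, and both arrays were chosen by the titles of their samples, so no measured value entered the choice. The cells were bone marrow LSK cells, which lack lineage markers and carry c-Kit and Sca-1, and which hold blood stem cells and early progenitors. The study grew CD45.2 donor cells of C57BL/6 background in irradiated mice beside CD45.1 wild-type marrow, to ask what the RUNX1S291fs mutation and the loss of Ezh2 do alone and together.

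Both mice carried the same lesions. Their CD45.2 cells came from Cre-ERT;Ezh2flox/flox stem cells in which a retrovirus had placed RUNX1S291fs and Cre had then removed Ezh2 (Ezh2Δ/Δ), and both samples were sorted for CD45.2. The labels set them apart only by disease stage, MDS against MDS/myeloid leukemia. The 6 remaining arrays serve as a background. They hold CD45.2 cells that were wild type, Ezh2Δ/Δ, RUNX1S291fs or RUNX1S291fs/Ezh2Δ/Δ, and CD45.1 wild-type cells from the RUNX1S291fs and from the RUNX1S291fs/Ezh2Δ/Δ mice, each pooled from 2 to 4 mice at month 4 and called here the month 4 arrays. The empty control retrovirus was used where RUNX1S291fs was not. No label states how old the moribund mice were. Each moribund array is 1 mouse, a retrovirus enters different places of the genome in different cells, and these places were not analysed here.

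RUNX1 is a transcription factor that, with its partner CBFB, switches on genes of blood stem cells, granulocytes, mast cells, platelets and lymphocytes, and its truncated form S291fs was found in patients with MDS and leukemia. Ezh2 is the methyltransferase of Polycomb repressive complex PRC2, which marks histone H3 at silent genes, and loss-of-function mutations of EZH2 occur in MDS. In MDS, stem cells make too few mature blood cells of abnormal shape, and the disease can pass into myeloid leukemia, in which immature myeloid cells build up.

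A level is the log2 processed signal of a probe relative to its array's 75th percentile, which is set to 0. Between 43.9% and 55.3% of 55681 probes were well above background on the 8 arrays, with MDS at 54.5% and MDS/ML inside that range, and 0 probes were saturated. The MDS array shared a slide and a scan session with the wild-type and the month 4 double-mutant array, whereas the MDS/ML array was alone on its slide and in its session, so slide and disease stage cannot be told apart. As each group has 1 array, no difference between the pair has a test from replicates of its own, and their number limits the precision. The median SD between repeat spots of 1 probe was 0.0569 (MDS) and 0.0614 (MDS/ML) on the log2 scale, which covers spotting only. The samples also differed in sex-linked genes, a difference that likewise cannot be told apart from disease stage. Xist, whose RNA coats the inactive X, was at 2.76 on the MDS array and -5.95 on the MDS/ML array, where it was not well above background, while the Y-linked Eif2s3y was at -6.91 on the MDS array and 3.22 on the MDS/ML array, not well above background on the former.

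The targeted genes came first. Ezh2 was at 3.29 on the MDS array and 3.10 on the MDS/ML array, both below the month 4 arrays at 3.40 to 4.01 (median 3.49). Its probe may lie outside the deleted exons, so this level checks nothing about the deletion. Runx1 was at 5.31 on the MDS array and 4.65 on the MDS/ML array by the brighter of its probes, with 3.04 to 4.41 (median 3.42) on the month 4 arrays. Neither labels nor files say if it binds the virus transcript. The other Runx1 probe gave 3.65 (MDS) and 4.06 (MDS/ML), so the 2 probes put the pair in opposite order, and both put the moribund arrays above all month 4 arrays.

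Both samples kept the marker Kit, the receptor for stem cell factor, at 5.11 on the MDS array and 4.97 on the MDS/ML array, against 4.06 to 4.99 (median 4.58) at month 4. Of 10 genes used to sort or subdivide LSK cells, 5 were below all month 4 arrays on both moribund arrays and 1 was above, against 15.1% and 9.96% of all genes. Of the 25 measured stem cell genes, 5 were below and 5 above. Ly6a, which encodes Sca-1, was at 0.53 on the MDS array and 1.18 on the MDS/ML array and between 3.17 and 4.14 (median 3.63) at month 4. Cd34, a surface protein of progenitors, was at 4.25 on the MDS array and 3.76 on the MDS/ML array, with 7.54 to 8.18 (median 7.87) at month 4. Flt3, a receptor that marks the lymphoid-primed end of the LSK pool, was at -2.34 on the MDS array and -1.28 on the MDS/ML array, with 3.23 to 5.90 (median 5.28) at month 4. Both moribund arrays also shared low levels of Hoxa7, a homeobox gene of progenitors (-2.02 on the MDS array and -1.18 on the MDS/ML array, month 4 2.94 to 4.34 (median 4.09)), and of Hoxa9 (-3.07 on the MDS array and -3.89 on the MDS/ML array, month 4 -2.26 to -0.06 (median -0.61)).

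Of the 20828 genes with a named probe, 13770 were well above background on at least 1 array of the pair, 12371 on both, 961 on MDS alone and 438 on MDS/ML alone. For a gene well above background on 1 array alone, the difference is a bound against the lowest such signal of the other array (or the gene's own signal there, if higher), and "at least" marks it. All other differences are log2 levels on MDS/ML minus MDS, so negative values are lower on MDS/ML. The background of the comparison is wide: 1614 genes (11.7%) were at least 2-fold higher on MDS/ML and 1246 (9.05%) at least 2-fold lower, 20.8% in either direction, with a median difference of 0.09 over all genes. Among the 3 wild-type arrays, the pairs had 7.34%, 16.7% and 18.4% of genes at least 2-fold apart. The split depends on the scaling, since 67.7% of the genes 2-fold apart were higher on MDS/ML after median scaling and 56.4% with the 75th percentile. For 2195 of the 2860 genes (76.7%) the difference was larger than the range over the 3 wild-type arrays. These genes were selected for a wide difference, which by itself favours a large share, so the share does not check the calls. Where a gene had several probes above background on both arrays, all of them lay on the same side for 388 of 431 genes, but all were 2-fold apart for 224 (52.0%).

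Set against the month 4 double mutant, which both pairs below share, the MDS array had 1508 genes at least 2-fold higher (10.7%) and 2890 lower (20.5%) of 14112, 31.2% either way. The MDS/ML array had 1372 higher (9.91%) and 2107 lower (15.2%) of 13845, 25.1% either way. The MDS array stood apart from the rest more often. It was at least 1 log2 unit below all 7 other arrays for 520 genes (3.78%) and above them for 301 (2.19%), against 185 (1.34%) and 200 (1.45%) for MDS/ML. Without a margin, MDS was the lowest of 8 for 27.7% of genes and the highest for 16.3%, and MDS/ML the lowest for 13.7% and the highest for 15.5%. These shares are the background for the counts of list members below.

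**Figure D1:**
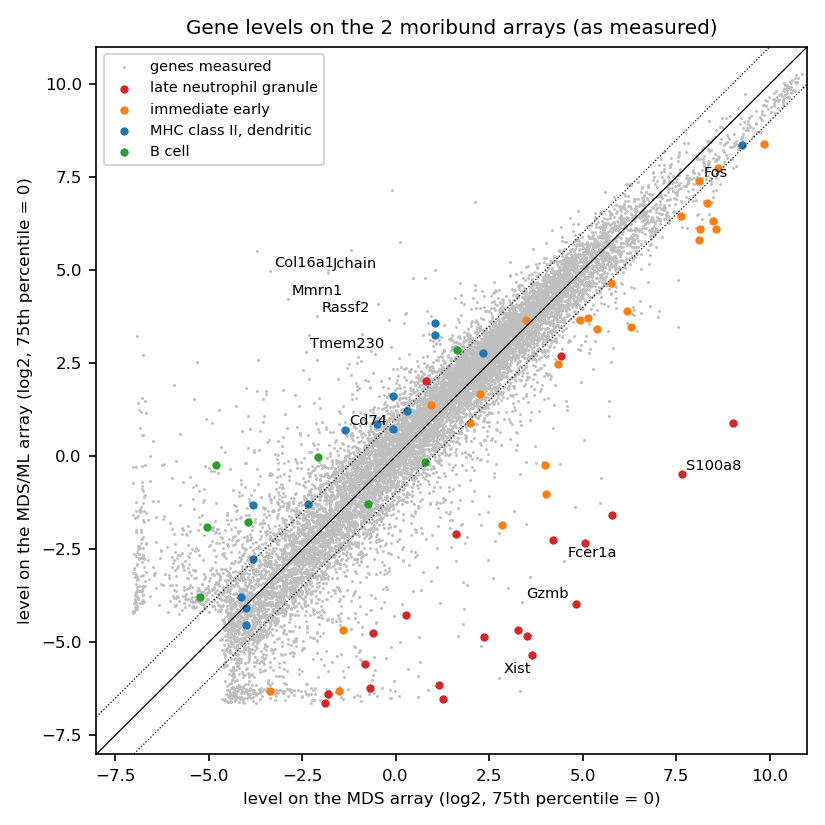
Level of each measured gene on the MDS array (horizontal) and the MDS/ML array (vertical), both log2 as measured, with 4 gene lists coloured, the solid line at equality and dotted lines 2-fold apart. Neutrophil granule genes lie far below the line, S100a8 at 7.66 (MDS) and -0.47 (MDS/ML), and MHC class II and B cell genes mostly above it.

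Genes of maturing granulocytes were far lower on MDS/ML, and their list had the median farthest from 0 of all lists examined. Of 21 measured genes of late neutrophil granules and surface, 20 were at least 2-fold lower on MDS/ML and 1 was higher, with a median of -5.56 against 0.09 over all genes. In bulk cells, fewer cells of a type and less RNA per cell cannot be told apart. Retnlg, a secreted protein of neutrophils, was at 4.83 on the MDS array and -3.96 on the MDS/ML array, a difference of -8.79, with -1.84 to 4.82 (median 1.24) at month 4. S100a8, a subunit of the calcium-binding protein calprotectin that fills the neutrophil cytoplasm, was at 7.66 on the MDS array and -0.47 on the MDS/ML array, with 1.23 to 9.23 (median 5.10) at month 4. Its partner S100a9 was at 9.02 on the MDS array and 0.89 on the MDS/ML array, with 3.22 to 9.37 (median 6.77) at month 4. The month 4 double mutant had 4.82, 9.23 and 9.37 for these 3 genes, and MDS/ML was below all 7 other arrays for each.

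The same order held for the granule proteins. Camp, the cathelicidin, differed by -7.36, Lcn2, the iron-trapping lipocalin, by -6.46, and Chil3, a chitinase-like protein, by -7.39. Ltf, the lactoferrin gene, was at 3.64 on MDS and not well above background on MDS/ML, at least 245-fold lower. Ngp, another granule protein, was likewise at least 100.2-fold lower. The exception was Cxcr2, the receptor that draws neutrophils into blood, at 1.22. In all, MDS/ML was below all 7 other arrays for 14 of 21 members, against 13.7% of all genes, and 9 of 21 were well above background there, against 21 on MDS. The median level of the list was -1.31 on wild type, 2.91 on the month 4 double mutant, 2.35 on MDS and -4.66 on MDS/ML.

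Primary granule genes, which granulocyte progenitors make earlier, were lower on MDS/ML too, 9 of 17 at least 2-fold and 1 higher (median -1.02, -1.02 to -0.65 over the alternatives). Elane, neutrophil elastase, was at 3.32 on the MDS array and 1.15 on the MDS/ML array, with 2.83 to 8.81 (median 4.61) at month 4. Prtn3, proteinase 3, was at 3.06 on the MDS array and 0.91 on the MDS/ML array, and Ctsg, cathepsin G, at 6.80 on the MDS array and 4.03 on the MDS/ML array. Unlike the late genes, 7 of 17 lay below all month 4 arrays on both moribund arrays, against 15.1% of all genes. Cebpe, a factor of late granulocyte maturation, differed by -1.91, Gfi1, a repressor needed for neutrophils, by -1.02 and Csf3r, the G-CSF receptor, by -1.09. Cebpa, the factor that opens the granulocyte path, went the other way at 1.03. Haptoglobin, Hp, had the widest difference of the list (-4.09).

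Eosinophil genes were lower on MDS/ML for 8 of 10 members and higher for 0 (median -4.16, -4.39 to -2.59 over the alternatives). Prg2, the major basic protein of eosinophil granules, was at 4.39 on the MDS array and -0.20 on the MDS/ML array, with 0.99 to 4.49 (median 2.85) at month 4. Epx, eosinophil peroxidase, was at least 17.9-fold lower. The ribonucleases Ear1 (-6.55), Ear2 (-6.16), Ear6 (-4.20) and Ear10 (-5.86) were also lower. They belong to a family of near-identical copies, so their probes may read one another and count as 1 signal. Il5ra, the receptor that drives eosinophil growth, was at least 3.12-fold lower.

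Mast cell and basophil genes split the pair within the list: 9 of 17 were at least 2-fold lower on MDS/ML and 2 higher (median -1.50, -2.36 to -0.81 over the alternatives). Fcer1a, the chain of the IgE receptor that binds IgE, was at 4.50 on the MDS array and -2.82 on the MDS/ML array, with 0.12 to 3.39 (median 1.05) at month 4. Gzmb, a serine protease of cytotoxic cells that is also made by mast cells, was at 3.38 on the MDS array and -3.92 on the MDS/ML array, with -3.33 to -0.62 (median -1.09) at month 4. For both genes the MDS array was the highest of the 8 and the MDS/ML array the lowest. Mcpt8, a basophil protease, was at 2.28 on the MDS array and -1.84 on the MDS/ML array, with 0.85 to 3.81 (median 2.13) at month 4, and Cpa3, the mast cell carboxypeptidase, at 8.47 on the MDS array and 6.85 on the MDS/ML array, with 1.45 to 6.76 (median 2.24). Hdc, which makes histamine, differed by -3.60, Mitf, a mast cell transcription factor, by -3.81, and Il1rl1, the IL-33 receptor of mast cells and basophils, by -4.62. Higher on MDS/ML were Ms4a2, the beta chain of the same IgE receptor, at least 5.52-fold, and Gata2, a factor of stem and mast cells, at 4.87 on the MDS array and 6.59 on the MDS/ML array, which on both arrays was above the month 4 range of 2.53 to 4.70 (median 3.65). Kit differed by -0.14.

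The promoters of 4 of these genes are shown because the letters TGTGGT, the core of the site that RUNX proteins bind, were in a larger share of this list's promoters than of the 5 other lists searched, and these 4 genes were chosen after the matches were known. Searched on both strands from 250 bases before to 50 after the start, they were in 9 of 16 mast cell and basophil promoters (56.3%) and in 1743 of 11021 promoters of measured genes (15.8%). They were in 6 of 19 late neutrophil promoters (31.6%) and 0 of 21 immediate early promoters, and in 17.7% of those of genes at least 2-fold higher and 17.9% of genes at least 2-fold lower. For genes at least 8-fold lower on MDS/ML the share was 29 of 124 (23.4%), and for genes at least 8-fold higher 18.9%. A match is a description and not a binding site. Sequences are from RefSeq, build GRCm38.p6, 5′ to 3′ on the gene's strand, with the match on either strand in capitals. The windows are Fcer1a at chr1:173227180-173227479, minus strand, Cpa3 at chr3:20242132-20242431, minus strand, Gzmb at chr14:56262285-56262584, minus strand and Mcpt8 at chr14:56085148-56085447, minus strand. The match begins at -14 from the start in Fcer1a and at -73 in Cpa3, where it reads ACCACA on the gene's strand. Gzmb has it at -93 and -34, and Mcpt8 at -188 and -139.
Fcer1a: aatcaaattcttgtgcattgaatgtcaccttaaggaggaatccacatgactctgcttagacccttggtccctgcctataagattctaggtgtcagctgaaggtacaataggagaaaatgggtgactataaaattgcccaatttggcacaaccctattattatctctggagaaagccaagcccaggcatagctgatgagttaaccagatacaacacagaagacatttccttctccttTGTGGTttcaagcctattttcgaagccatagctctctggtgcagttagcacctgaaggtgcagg
Cpa3: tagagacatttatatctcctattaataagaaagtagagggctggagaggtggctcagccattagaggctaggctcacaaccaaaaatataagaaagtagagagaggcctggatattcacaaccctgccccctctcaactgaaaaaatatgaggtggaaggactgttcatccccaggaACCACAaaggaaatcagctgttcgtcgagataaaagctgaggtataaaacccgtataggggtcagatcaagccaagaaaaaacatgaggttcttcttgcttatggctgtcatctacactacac
Gzmb: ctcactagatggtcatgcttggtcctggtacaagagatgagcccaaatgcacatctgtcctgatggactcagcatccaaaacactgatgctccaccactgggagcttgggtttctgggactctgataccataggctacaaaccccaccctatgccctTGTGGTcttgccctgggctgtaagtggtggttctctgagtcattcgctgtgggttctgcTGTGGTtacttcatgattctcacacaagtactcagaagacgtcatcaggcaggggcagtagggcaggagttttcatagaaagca
Mcpt8: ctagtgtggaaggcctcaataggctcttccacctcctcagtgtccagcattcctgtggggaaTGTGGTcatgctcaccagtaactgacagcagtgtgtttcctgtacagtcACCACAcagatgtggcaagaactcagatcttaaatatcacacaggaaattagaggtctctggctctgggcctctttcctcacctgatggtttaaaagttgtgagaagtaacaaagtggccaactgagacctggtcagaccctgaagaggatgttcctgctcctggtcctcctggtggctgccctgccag

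Other letters were also unevenly spread. AGATAA, the core read by GATA factors, was in 29 of 124 promoters (23.4%) of genes at least 8-fold lower on MDS/ML and in 8.98% of all measured genes. It was in 13.3% of promoters of genes at least 8-fold higher. With the 2-fold threshold the shares of AGATAA were 12.9% for lower and 10.8% for higher genes. CGGAAG, read by ETS factors, was in 9.68% and 16.1% of promoters of genes at least 8-fold lower and higher, against 32.4% of all. Shares of the E-box CANNTG, of CCAAT and of the AP-1 site TGANTCA in promoters of genes at least 8-fold lower were 85.5%, 48.4% and 8.87%, against 68.9%, 42.8% and 6.56% of all. The differences between these shares were not tested.

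Monocyte and macrophage genes were mixed, 10 of 26 lower on MDS/ML and 4 higher (median -0.42, -0.61 to -0.27 over the alternatives). The secreted chemokines Ccl6 (-3.09) and Ccl9 (-2.36), the lectin Lgals3 (-2.41) and lysozyme Lyz1 (-2.03) were lower. The mannose receptor Mrc1 was at least 2.69-fold higher, and the complement gene C1qa was higher by 1.39. Irf8 (-0.28) and Csf1r (-0.68), a factor and a receptor of the monocyte path, differed by less than 2-fold.

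Erythroid genes were at least 2-fold lower on MDS/ML for 7 of 18 members, with 0 higher and a median of -0.61 (-0.63 to -0.28 over the alternatives). The hemoglobin genes Hba-a1 (-3.34) and Hba-a2 (-3.27), which are near-identical, and Hbb-bs (-3.22) led the list, with Slc4a1, the anion exchanger of the red cell membrane, at -2.46 and Alas2, the first enzyme of red cell heme synthesis, at least 7.53-fold lower. Hba-a1 was at 4.57 on the MDS array and 1.23 on the MDS/ML array, and at 1.76 on wild type and 1.27 on CD45.1 cells of double-mutant mice, so the MDS/ML level was the lowest of the 8 and close to these wild-type arrays. The regulators Klf1 (0.22), Epor (0.31) and Gata1 (-0.59) differed by less than 2-fold.

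Platelet genes were high on both mice. Of 20 measured members, 15 were above all 6 month 4 arrays on both moribund arrays, against 9.96% of all genes, while the median difference between the pair was -0.07 with 3 higher and 3 lower. Pf4, platelet factor 4, was at 8.50 on the MDS array and 7.13 on the MDS/ML array, with 1.78 to 4.80 (median 4.43) at month 4. Clec1b, a platelet receptor, was at 4.41 on the MDS array and 6.15 on the MDS/ML array, with -4.35 to 0.33 (median -2.75) at month 4. Gp9, part of the receptor for von Willebrand factor, was at 5.28 on the MDS array and 4.06 on the MDS/ML array, with 1.30 to 2.87 (median 2.29). Vwf itself was higher on MDS/ML (2.43), as was Tubb1, the platelet tubulin, at least 6.09-fold. Cdkn2a, which encodes cell cycle inhibitors and is silenced by Polycomb, was also high on both arrays, at 1.92 on the MDS array and 2.41 on the MDS/ML array, with -6.19 to 0.77 (median -4.30) at month 4.

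**Figure D2:**
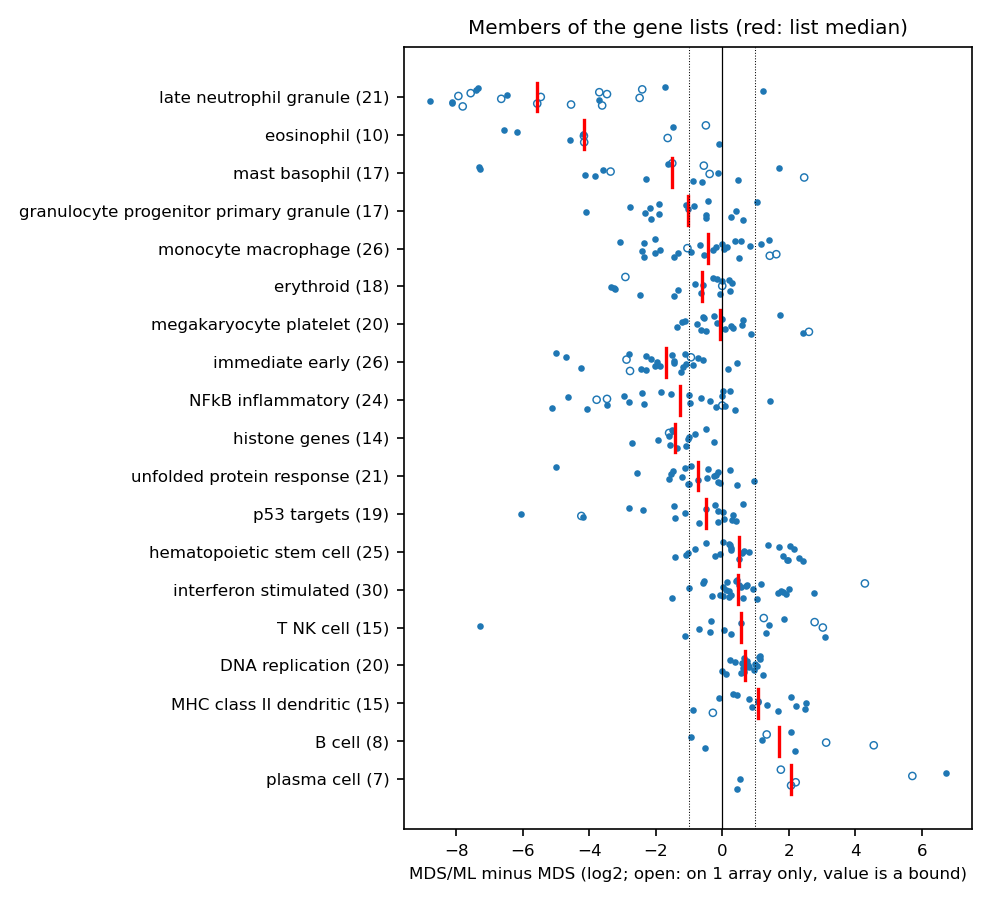
Difference between MDS/ML and MDS (horizontal, log2) for each measured member of 19 gene lists (rows, with the number of members), the list median in red, open circles for genes well above background on 1 array alone. The late neutrophil list has its median at -5.56 and the plasma cell list at 2.07.

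MHC class II, B cell and plasma cell genes stood higher on MDS/ML. Of 15 MHC class II and dendritic genes, 8 were at least 2-fold higher and 0 lower (median 1.07). H2-Ab1, a chain of the class II molecule that presents peptides to T cells, was at 1.05 on the MDS array and 3.58 on the MDS/ML array, with 4.52 to 5.88 (median 5.39) at month 4. Cd74, the invariant chain that guides class II molecules to their compartment, was at -1.35 on the MDS array and 0.72 on the MDS/ML array, with 0.69 to 3.52 (median 1.96). H2-DMb1, which loads the peptide, was at 1.05 on the MDS array and 3.27 on the MDS/ML array, with 3.54 to 3.94 (median 3.83). The MDS array was the one that stood apart, as it was below all 7 other arrays for 10 of 15 members, against 27.7% of all genes. On MDS/ML most were still below month 4: 9 of 15 lay below all 6 month 4 arrays on both moribund arrays.

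B cell genes were higher on MDS/ML for 6 of 8 measured members and lower for 0 (median 1.70, 0.71 to 1.85 over the alternatives). Of 13 listed genes, 5 were not well above background on either array. MDS was the lowest of the 8 arrays for 5 of 8 members, against 27.7% of all genes. MDS/ML was the highest for 1 of 8, against 15.5% of all genes. Pou2af1, a co-activator of B cells, was at least 23.5-fold higher, Ms4a1, which encodes CD20, at least 8.73-fold, and Blnk, an adaptor of the B cell receptor, differed by 2.06. Pou2af1 was inside its month 4 range on MDS/ML, at -0.24 with -4.24 to 2.77 (median -2.75) at month 4, and Ms4a1 above it, at -1.91 with -7.03 to -3.90 (median -5.64). Plasma cell genes were higher for 5 of 7 and lower for 0 (median 2.07, 0.47 to 3.95 over the alternatives). Of these 7, MDS was the lowest of the 8 arrays for 4 and MDS/ML the highest for 3. Jchain, which joins IgM and IgA into polymers, was at -1.80 on the MDS array and 4.94 on the MDS/ML array and above every month 4 array (-3.03 to 2.59 (median 1.70)). Mzb1, an endoplasmic reticulum protein of plasma cells, was at least 52.6-fold higher, whereas Xbp1 (0.43) and Prdm1 (0.54), factors of plasma cell fate, differed by less than 2-fold.

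T and NK cell genes were mixed, 7 of 15 higher on MDS/ML and 2 lower (median 0.57, 0.16 to 0.99 over the alternatives). Thy1 (3.10), Il2rb (at least 8.14-fold) and Cd3g (at least 6.86-fold), surface proteins of T and NK cells, were higher, and the lytic proteins Gzmb (-7.29) and Prf1 (-1.11) lower. Lymphoid-primed progenitor genes had 4 of 14 higher and 1 lower, with a median of 0.12 (-0.02 to 0.31 over the alternatives) near that of all genes. Of these, Il12a, a cytokine subunit, was the lower one (-1.29). Il7r, the receptor for the main lymphoid growth factor, was at least 3.22-fold higher and Gata3, a factor of T cells, by 2.32. Cd27, a marker of lymphoid-primed progenitors, was at -4.12 on the MDS array and -2.43 on the MDS/ML array, below the month 4 range of 0.44 to 2.57 (median 2.25) on both.

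Stem cell genes had 9 of 25 members at least 2-fold higher on MDS/ML and 3 lower (median 0.52). Higher were Hlf (2.15), a factor that keeps stem cells quiescent, Tek (1.98), the angiopoietin receptor of stem and endothelial cells, and Esam (2.04), an adhesion molecule that marks stem cells. MDS/ML was the highest of the 8 arrays for 10 of 25, against 15.5% of all genes. Hlf was an exception, at -3.24 on the MDS array and -1.09 on the MDS/ML array, and between 0.94 and 4.15 (median 3.14) at month 4. Slamf1 (-1.43), which encodes the stem cell marker CD150, and Mllt3 (-1.03), which supports self-renewal, were lower on MDS/ML.

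**Figure D3:**
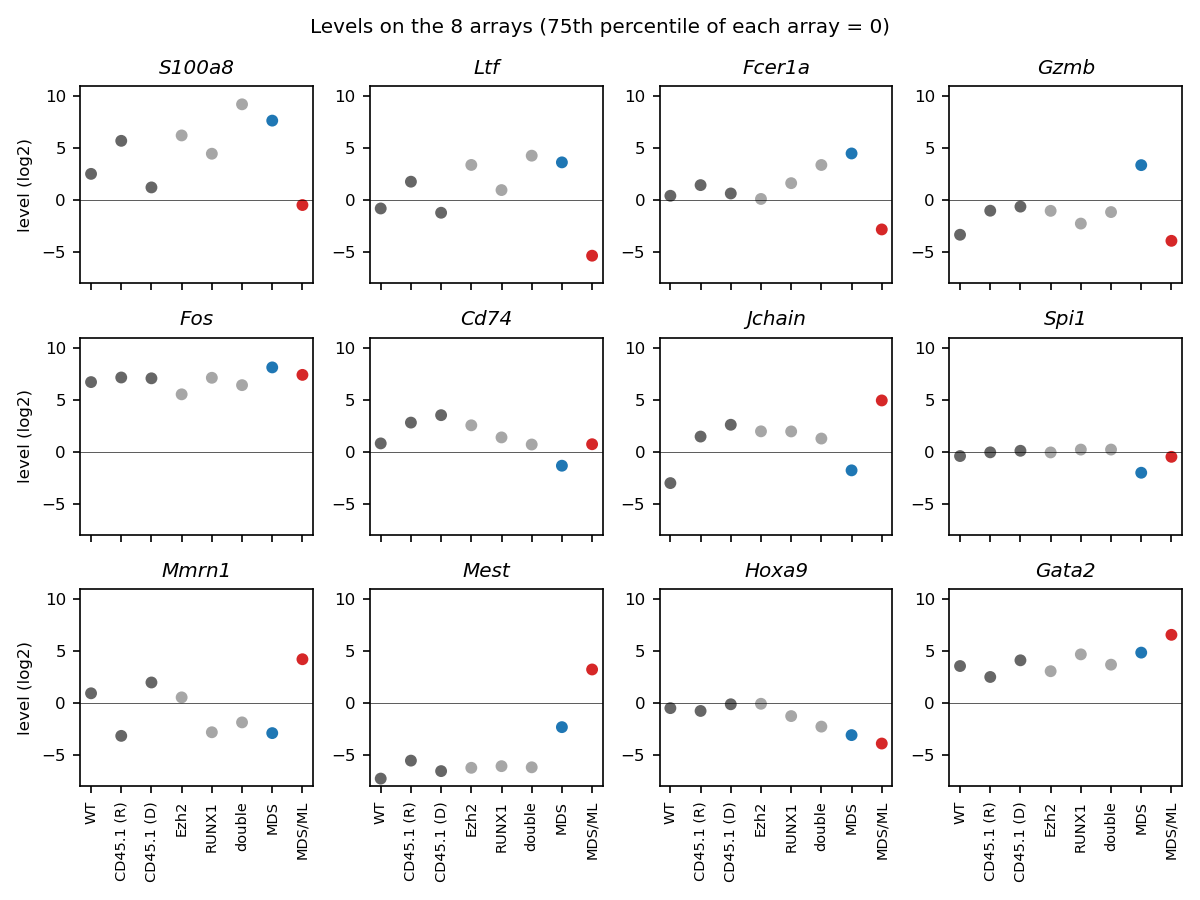
Levels of 12 genes (vertical, log2) on the 8 arrays (horizontal): wild-type donor cells (WT), CD45.1 cells of RUNX1S291fs (R) and double-mutant (D) mice, Ezh2Δ/Δ, RUNX1S291fs and double-mutant cells of month 4 in grey, MDS in blue and MDS/ML in red. Each point is 1 array as measured. S100a8, Ltf and Fcer1a are lowest on MDS/ML, Cd74 and Spi1 are lowest on MDS, and Jchain and Mest are highest on MDS/ML.

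Genes of the immediate early response, which cells switch on soon after a stimulus, were lower on MDS/ML for 20 of 26 members and higher for 0 (median -1.69). Atf3, a stress-response factor, differed by -5.01. Egr1, a zinc finger factor, was at 8.10 on the MDS array and 5.82 on the MDS/ML array, with 4.68 to 7.28 (median 5.60) at month 4, and Egr2 at 2.84 on the MDS array and -1.85 on the MDS/ML array, with -2.36 to 1.40 (median -0.87). Jun (-1.47) and Nr4a1 (-2.43) were lower by over 2-fold, Fos (-0.72) by less. MDS was the highest of the 8 arrays for 13 of 26 genes, against 16.3% of all, and MDS/ML the lowest for 3.

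NF-kappaB and inflammatory genes followed, with 12 of 24 lower on MDS/ML and 1 higher (median -1.26). Tnf, an inflammatory cytokine, was at 1.19 on the MDS array and -3.93 on the MDS/ML array, with -1.60 to 2.00 (median 0.97) at month 4. Tnfaip3, the A20 protein that ends NF-kappaB signalling, was at 7.55 on the MDS array and 3.47 on the MDS/ML array, with 3.29 to 6.32 (median 4.39). The neutrophil attractant Cxcl2 (-4.63) and Ptgs2 (-3.47), a prostaglandin enzyme, were lower, and Il6 at least 13.7-fold lower. Nfkb1, a subunit of the factor itself, was higher by 1.45.

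The TGF-beta list held early targets and receptors that differed in direction: 8 of 19 were lower on MDS/ML, 1 higher, and the median was 0.32. The targets Id1 (-3.05), Id2 (-2.02) and Id3 (-5.37), inhibitors of E-box factors, and Skil (-3.04) were lower, and Smad7, the inhibitory SMAD, at least 12-fold. Id3 was at 1.90 on the MDS array and -3.47 on the MDS/ML array, with -2.14 to 3.81 (median 0.88) at month 4. The receptors Tgfbr1 (0.65) and Tgfbr2 (0.39) and the mediators Smad2 (0.32), Smad3 (0.53) and Smad4 (0.40) differed by less than 2-fold, with probes of Tgfbr1, Tgfbr2 and Smad3 on both sides of 0. With the dimmest probe of each gene the list's median was -0.51.

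Genes that p53 switches on were lower on MDS/ML for 8 of 19 and higher for 0 (median -0.48). Perp, a membrane protein, was at 5.48 on the MDS array and -0.58 on the MDS/ML array, with 0.42 to 1.53 (median 1.01) at month 4, Cdkn1a, the cell cycle inhibitor p21, at 5.18 on the MDS array and 2.79 on the MDS/ML array, with 1.68 to 5.30 (median 3.10), and Plk3, a stress kinase, at 5.70 on the MDS array and 1.50 on the MDS/ML array, with 0.52 to 4.80 (median 2.83). MDS was the highest of the 8 arrays for 9 of 19. The death genes Bbc3 (-1.45) and Pmaip1 (-1.43) were lower, and Bax (-0.22) and Sesn1 (0.07) differed by less than 2-fold. Unfolded protein response genes were lower for 9 of 21 and higher for 0, with Ddit3, the CHOP factor, at -2.58 and Hspa5, the chaperone BiP, at -1.59.

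DNA replication genes were higher on MDS/ML for 5 of 20 members and lower for 0, and 19 of 20 were on the positive side (median 0.70). Mcm5, part of the replicative helicase, was at 4.51 on the MDS array and 5.54 on the MDS/ML array, with 5.56 to 6.20 (median 5.94) at month 4, and Cdt1, which loads it, at 4.13 on the MDS array and 5.25 on the MDS/ML array, with 5.20 to 6.03 (median 5.88). MDS was the lowest of the 8 arrays for 18 of 20. Mitosis genes lay on the other side in 16 of 20 cases, mostly by less than 2-fold (median -0.43, -0.48 to -0.28 over the alternatives, 1 higher and 0 lower), and here MDS/ML was the lowest for 15 of 20. The 1 higher mitosis gene was the checkpoint kinase Bub1b (1.28), and Cenpa, the centromere histone, differed by -0.95. Outside that list, the mitotic cyclins Ccnb1 (-1.29) and Ccnb2 (-1.05) were lower by over 2-fold. Ccnd2, the cyclin of early G1, was at 1.76 on the MDS array and 4.34 on the MDS/ML array, with 2.99 to 4.83 (median 4.40) at month 4. Both lists had genes below every month 4 array on both moribund arrays, 11 of 20 for replication and 12 of 20 for mitosis, against 15.1% of all.

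Interferon-stimulated genes were higher on MDS/ML for 9 of 30 members and lower for 2 (median 0.48). Oasl1 (2.76), Oas2 (1.83) and Oasl2 (1.91), of the oligoadenylate synthetase family, and Irf7 (2.02), the factor that amplifies interferon, were among them. MDS was the lowest of the 8 arrays for 17 of 30. Oasl2 was at -1.34 on the MDS array and 0.57 on the MDS/ML array, with 0.04 to 2.97 (median 2.20) at month 4. Usp18 (-1.51) and Irf1 (-1.01), 2 members of the same list, were lower.

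Among chromatin genes, 6 of 19 epigenetic regulators were at least 2-fold higher on MDS/ML and 1 lower (median 0.54). The list mixes genes mutated in MDS or leukemia with other regulators. Dnmt3a, which methylates DNA at new sites, was at 1.42 on the MDS array and 3.15 on the MDS/ML array and above the month 4 range of 1.58 to 2.27 (median 1.88) on the latter. Dnmt1, which copies methylation at replication, differed by 1.37 and Tet1, which oxidises it, by 1.61 by 1 probe and 0.76 by the other. Kdm6b, a demethylase of the Polycomb mark, was lower (-1.64). Within PRC2, Phf19 (1.57), an accessory subunit, passed 2-fold, and Suz12 (0.59), Eed (-0.06) and Ezh1 (0.39) did not. Within PRC1, Cbx6 differed by 2.71 by its brightest probe and 0.96 by the lowest of its 3. Of the imprinted genes, Mest was at -2.31 on the MDS array and 3.25 on the MDS/ML array, with -7.26 to -5.53 (median -6.20) at month 4, where 0 arrays read it above background, and Dlk1 at -0.67 on the MDS array and 2.83 on the MDS/ML array, with -2.05 to 2.32 (median -0.33). Meg3, in the same imprinted region as Dlk1, was at least 7.43-fold higher.

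Several of the widest single differences rested on 1 array of the pair, but not all. Gdpd3, a lysophospholipase, was at -3.70 on the MDS array and 5.52 on the MDS/ML array, with -6.52 to -2.88 (median -4.04) at month 4, and Napg, a protein of vesicle fusion, at -0.10 on the MDS array and 7.15 on the MDS/ML array, with 0.08 to 0.64 (median 0.27). Napg had 7 arrays between -0.10 and 0.64 and MDS/ML alone above them. Col16a1, a collagen, was at -3.36 on the MDS array and 4.99 on the MDS/ML array, with 0.87 to 3.88 (median 2.45), with both moribund arrays outside the month 4 range. As3mt, which methylates arsenic, was at -3.99 on the MDS array and 1.85 on the MDS/ML array, with 1.90 to 2.59 (median 2.35). Mmrn1, a platelet and endothelial protein, was at -2.88 on the MDS array and 4.23 on the MDS/ML array, with -3.15 to 2.00 (median -0.64). Ackr1, the chemokine-binding Duffy antigen, was at 5.13 on the MDS array and -2.55 on the MDS/ML array, with -4.05 to -0.81 (median -2.21), and Insm1, a factor of endocrine and some blood cells, at 5.45 on the MDS array and -1.26 on the MDS/ML array, with -4.55 to -1.09 (median -2.12), both with MDS alone high. Npy, a neuropeptide, and Penk, an opioid peptide precursor, were well above background on 1 array of the pair alone, with MDS/ML at least 129-fold higher for Npy and at least 196-fold lower for Penk.

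Position along the chromosomes set the 2 mice apart in another way. Genes well above background on all 8 arrays (11325, placed in the gene order of RefSeq) were set against the median of the month 4 arrays and centred on the median over all genes of the array, and long stretches of neighbours were low together on 1 moribund array each. On the MDS array, 221 neighbouring genes of chromosome 2 from Large2 to Crls1 had a median departure of -0.94, and 181 of them were below the month 4 median. The 50 genes from Cerkl to Atg13, which precede them on the same chromosome, had a median of -0.92, with 38 below. The MDS/ML array had medians of 0.00 and 0.04 over these genes, and the month 4 arrays -0.08 to 0.08 and -0.05 to 0.09.

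On the MDS/ML array, 138 neighbouring genes of chromosome 6 from Gng12 to Gxylt2 had a median departure of -0.85, with 124 of 138 below. The MDS array had -0.08 there and the month 4 arrays -0.05 to 0.04. By the same rule, 0 stretches were found on each of the 6 month 4 arrays, and none besides these 3 on the moribund arrays. The rule asked for a running median of 25 genes at least 0.5 from the median of all placed genes over at least 50 genes, and it was chosen after medians along the chromosomes had been seen. DNA was not measured, so whether copies of these stretches were lost was not tested.

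**Figure D4:**
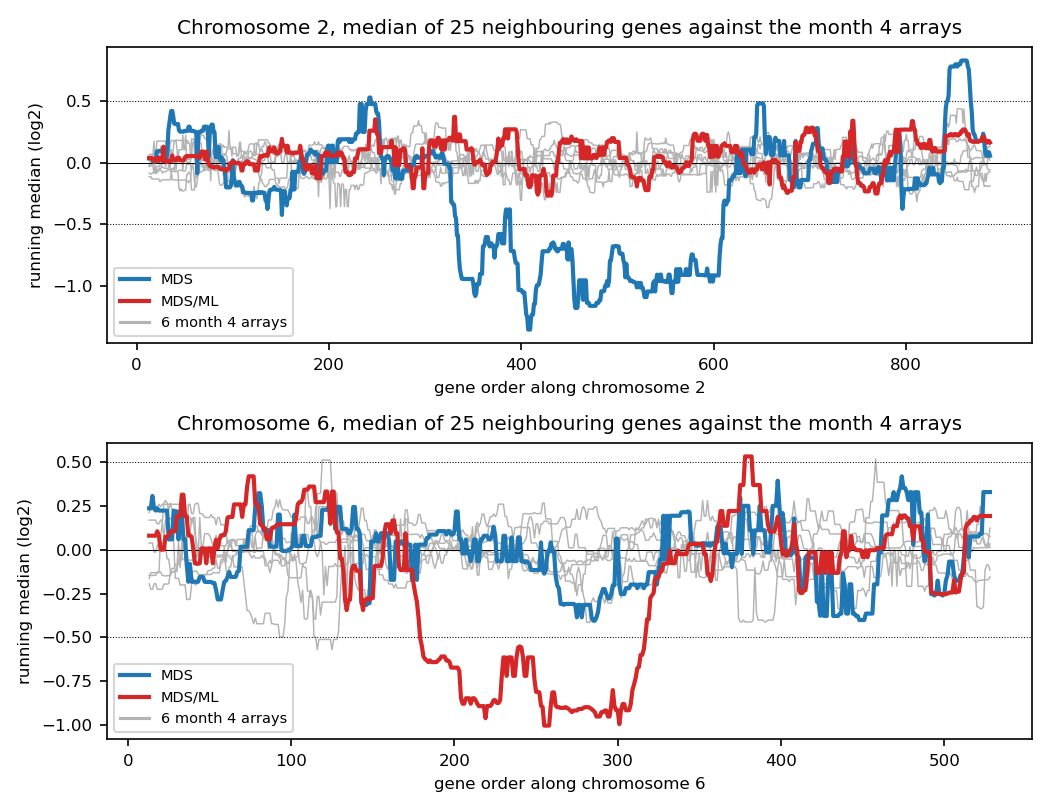
Running median of 25 neighbouring genes (vertical, log2 departure from the median of the month 4 arrays) by gene order along chromosomes 2 and 6 (horizontal), for MDS in blue, MDS/ML in red and each month 4 array in grey, with dotted lines at 0.5 in either direction. MDS drops along the middle of chromosome 2 and MDS/ML along the middle of chromosome 6, each on 1 array only. The rise of MDS near the end of chromosome 2 spans fewer than 50 genes.

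The stretches reach into the pair. Between Large2 and Crls1, 133 of 257 measured genes were at least 2-fold higher on MDS/ML and 14 lower (median 1.02), against a median of 0.09 over the rest of chromosome 2 and 11.7% higher over all genes. Between Cerkl and Atg13 it was 32 higher and 5 lower of 80 (median 0.73). Between Gng12 and Gxylt2, 40 of 168 were lower and 6 higher (median -0.52), against 0.08 over the rest of chromosome 6. Together the stretches held 505 measured genes, with 171 of the 1614 higher and 59 of the 1246 lower genes. Chromosome 2 as a whole had the highest median difference (0.30) and chromosome 6 the lowest (-0.07), against 0.13 over all genes above background on both arrays.

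The low stretches hold genes of blood formation. On MDS, Spi1, the myeloid and B cell factor PU.1, was -1.85 from the month 4 median, at -2.03 on the MDS array and -0.50 on the MDS/ML array, with -0.42 to 0.20 (median 0.01) at month 4. Lmo2, a partner of the stem cell factors of the TAL1 complex, departed by -1.81, Traf6, a link from Toll-like receptors to NF-kappaB, by -1.68 and Rag2, of the recombinase of antigen receptors, by -1.68. Bub1b (-2.01) and Knl1 (-0.95), of the mitotic checkpoint and kinetochore, and B2m (-0.93), the light chain of MHC class I, were also low. The MDS/ML array, which lacks the stretch, was also below the month 4 range for Spi1, Lmo2, Bub1b, Knl1, B2m and Rag2. Rag2 was lower there (-3.84) than on MDS (-3.48), and Lmo2 was at 4.46 on the MDS array and 5.03 on the MDS/ML array, with 6.30 to 6.69 (median 6.46) at month 4. Traf6 was inside its month 4 range on MDS/ML. Some genes inside the stretches were not low on MDS: Cd44, an adhesion receptor, was at 0.30, Cat, catalase, at 0.56, Prg2 at 1.72 and Chst1 at 4.64.

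On MDS/ML, the chromosome 6 stretch held Hk2 (-3.53), a hexokinase, Gadd45a (-1.96), a stress-response gene, and Mitf (-1.41). It also held Mthfd2 (-2.15), of mitochondrial folate metabolism, and Foxp1 (-0.99), a forkhead factor. The MDS array, which lacks the stretch, was also below the month 4 range for Hk2, Gadd45a, Mthfd2 and Foxp1, though less far. Hk2 was at 1.31 on the MDS array and -1.17 on the MDS/ML array, with 2.13 to 2.99 (median 2.43) at month 4. Mitf was above its month 4 range on MDS. Gata2 lies inside the stretch and went the other way at 3.02, as did Gp9 at 1.85 and Slc41a3, a magnesium transporter, at 3.17. Tmsb10, a small actin-binding protein, departed by -1.91 on MDS/ML and was at 6.38 on the MDS array and 4.53 on the MDS/ML array.

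Near the end of the chromosome 2 stretch, 3 measured neighbours were far below month 4 on MDS, by more than the median of the stretch. Elsewhere in it, Kcnip3, which encodes a potassium channel-interacting protein, was about as low, at -5.12 from the month 4 median. Unlike those neighbours, Kcnip3 was low on both moribund arrays. It was at -2.94 on the MDS array and -2.60 on the MDS/ML array, with 0.27 to 2.68 (median 2.37) at month 4. Rassf2, a candidate tumour suppressor that binds Ras, was at -2.10 on the MDS array and 3.76 on the MDS/ML array, with 3.33 to 4.06 (median 3.95) at month 4. Its neighbour Slc23a2, a vitamin C transporter, was at -6.50 on MDS, not well above background, and at -1.21 on MDS/ML, with -1.76 to -0.83 (median -1.21) at month 4, at least 14.9-fold higher on MDS/ML. Next in order, Tmem230, a protein of vesicle transport, was at -2.40 on the MDS array and 2.80 on the MDS/ML array, with 2.45 to 2.97 (median 2.73) at month 4. On the side before Rassf2, Prnd was at -2.40 on the MDS array and -2.51 on the MDS/ML array, inside the month 4 range of -3.40 to -2.25 (median -2.85). Prnp, the prion protein gene, was at -4.73 on MDS, not well above background, and at least 6.41-fold higher on MDS/ML. At -2.05 on MDS/ML it was also below its month 4 range of -1.11 to 1.39 (median 0.18). Farther before, Cenpb was at 0.94 on the MDS array and 3.77 on the MDS/ML array, with 3.79 to 4.12 (median 3.90) at month 4. On the far side, Pcna, the sliding clamp of replication, was at 5.90 on the MDS array and 6.55 on the MDS/ML array, with 6.53 to 7.17 (median 6.70) at month 4.

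**Figure D5:**
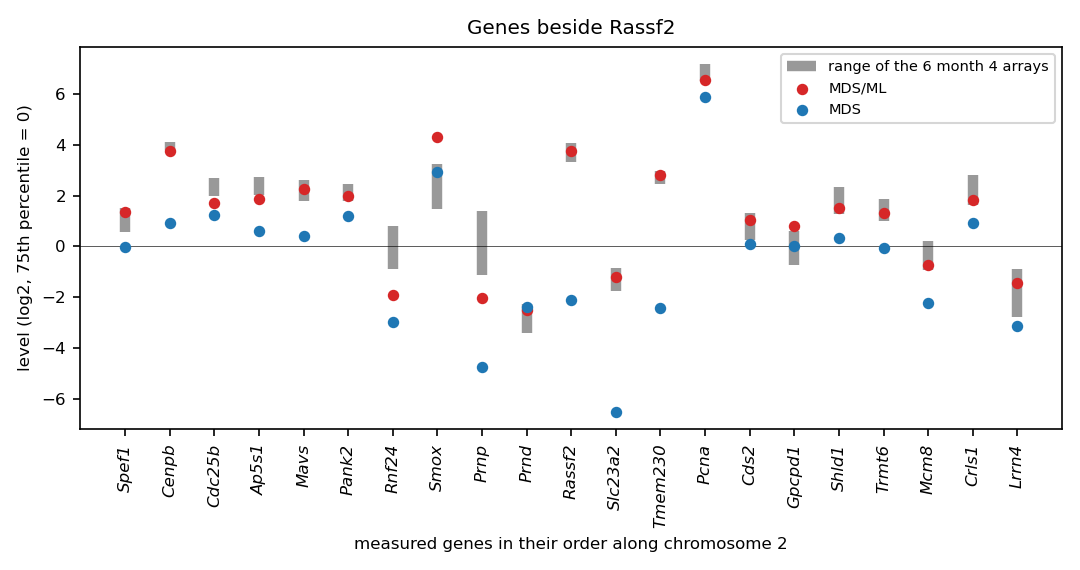
Levels (vertical, log2) of 21 measured genes in their order along chromosome 2 around Rassf2 (horizontal): MDS in blue, MDS/ML in red and grey bars for the range of the 6 month 4 arrays. Rassf2, Slc23a2 and Tmem230 lie far below their bars on MDS alone.

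A further run of neighbours was lower on MDS/ML, the 25 genes of chromosome 13 from H4c8 to Ripor2, of which 0 were on the positive side (median -1.10). It is a histone gene cluster, and the histone list as a whole had 10 of 14 members lower on MDS/ML and 0 higher (median -1.41). H2bc4, a histone H2B gene, was at 6.56 on the MDS array and 3.85 on the MDS/ML array, with 4.42 to 6.12 (median 5.46) at month 4, and H1f5, a linker histone, at 6.77 on the MDS array and 5.18 on the MDS/ML array, with 5.53 to 7.53 (median 6.06). MDS was the highest of the 8 arrays for 7 of 14 and MDS/ML the lowest for 5. Histone genes are many near-identical copies, so their probes may read one another. With a shortest stretch of 30 genes, 48 genes here were also higher on MDS than on the month 4 median (0.71), and 37 on the CD45.1 array of the RUNX1S291fs mice (0.70).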

How the data were processed

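RNA from sorted LSK cells (20 ng a sample) was amplified, Cy3-labelled (Low Input Quick Amp) and read on 1-colour Agilent arrays of design 28005, per the labels' protocols and the file headers. Each of the 8 files holds spot intensities deposited by the authors as scanner output (Feature Extraction 10.7.1.1, protocol GE1_107_Sep09, genome build mm9, per the file headers). The series table deposited by the authors holds scaled intensities. They matched the processed signal divided by 1 factor an array for 100% of probes within 0.01 log2.

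The processed signal of each spot was put on the log2 scale, averaged over spots of a probe and reduced by the array's 75th percentile over non-control probes. Spots flagged as outliers (105 to 154 an array) were left out, unless all spots of the probe were flagged. A gene took the probe with the highest mean over 8 arrays. Of 55681 probes, 27417 were named, giving 20828 genes, 5490 of them with over 1 probe. Gene order and promoters came from RefSeq (GRCm38.p6), with names matched by symbol, and 11021 of 13770 measured genes had a promoter in the table. A gene not well above background on 1 array of the pair was set to that array's floor (-5.11 on MDS, -4.29 on MDS/ML) or its own level, if higher.

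With 1 array a group the pair has no test from replicates of its own. Genes were named by rule: the targeted genes, the 15 largest differences and 8 largest bounds in each direction, the 6 genes farthest outside the 7 other arrays in each direction for either moribund array, up to 5 members of each list with the largest differences, and the ends and leading genes of runs of neighbours. Further list members and neighbours were named after their values were seen. The members and lists were chosen with earlier results of these data known. Alternatives covered background correction (normexp, offset 50, on the median signal, since the files carry no mean signal), scaling, the filter on dim genes, the choice of probe, the authors' table and limma with the spread of the 3 wild-type arrays. Calculations used Python 3.11.15, numpy 2.4.6, pandas 2.3.3, R 4.3.3 and limma 3.58.1, and were tested on simulated data. Probes without a gene name were left out of the comparison of genes, and interval probes are given only among the additional observations.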

Additional observations from a re-analysis of the deposited data

Results flagged for a closer look

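The array also carries 16194 probes for intervals between genes, which the comparison did not use. Of these, 7035 were well above background on at least 1 array of the pair, 385 at least 2-fold higher on MDS/ML and 1139 lower (median -0.32). In either direction this was 21.7%, against 20.8% of genes. All probes without a gene name tilted alike, with 965 higher and 1969 lower of 13434 (21.8% either way, median -0.30). Interval probes that were well above background on a moribund array and on none of the 3 wild-type arrays numbered 255 on MDS/ML and 808 on MDS.

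On MDS/ML the brightest such probes stood at least 4.75 log2 units above the brightest wild-type array at chr13:19611679-19620954, at least 4.26 at chr5:113594167-113645342 and at least 3.77 at chr17:80133213-80144417 (build mm9). The last of these probes was well above background on 3 of the 8 arrays, at -0.36 on MDS and -0.02 on MDS/ML, and so does not set the pair apart. On MDS they stood at least 4.16 above at chr4:88583425-88584070, where a further probe of the same interval stood at least 3.74 above, and at least 4.07 at chr4:149445201-149445902. Each value is 1 probe on 1 array.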

How the results depend on the processing

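No paired analysis was possible because each disease stage has 1 array. With normexp background correction the genes at least 2-fold apart fell to 1632, 886 higher and 746 lower on MDS/ML. Every other setting of scaling, filter, probe choice or source kept both counts within 1.5 times. Median scaling moved the median of all genes from 0.09 to 0.24. Without genes of X and Y, 2744 genes were at least 2-fold apart, 1522 higher and 1222 lower, against 2860 with them. Where limma took the spread from the 3 wild-type arrays, assuming that moribund samples vary alike, 21 genes passed an adjusted p of 0.05 (15 higher, 6 lower) and 1540 an unadjusted p of 0.05.

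The stretch medians with normexp were -0.70 (Cerkl to Atg13), -0.81 (Large2 to Crls1) and -0.72 (Gng12 to Gxylt2). For the last, median, quantile and cyclic loess scaling gave -0.82, -0.81 and -0.78. With normexp the rule no longer found the stretch from Cerkl to Atg13, and it split the long chromosome 2 stretch into 2 parts of 99 genes each and the chromosome 6 stretch into 60 and 74 genes. Of 18 list medians at least 0.5 in size, 17 kept their sign under every alternative, but several moved in size by over 1.5 times: plasma cell 0.47 to 3.95, B cell 0.71 to 1.85, T and NK cell 0.16 to 0.99, mast cell and basophil -2.36 to -0.81, eosinophil -4.39 to -2.59, primary granule -1.02 to -0.65 and erythroid -0.63 to -0.28. The median of TALE homeobox cofactors was -0.63 and reversed to 0.43 without the filter on dim genes and to 0.50 with the dimmest probe. Of the named genes at least 2-fold apart, only Plagl1 reversed, from -1.14 to 0.035 with the mean over probes. Sign changes of smaller differences were not counted. Runx1 was 1 such gene, as its dimmer probe put MDS (3.65) below MDS/ML (4.06). The cause of these changes was not tested. Signal over background limits the 1399 genes that were measured on 1 array of the pair.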

Other observations

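Ribosomal protein genes lay on the negative side for 23 of 23 members, with 0 higher and 0 lower by 2-fold and a median of -0.50, which quantile normalization moved to 0.05. Glycolysis and hypoxia genes had 1 of 23 at least 2-fold higher on MDS/ML and 2 lower (median 0.31), and MDS was the lowest of the 8 arrays for 13 of 23, against 27.7% of all genes. Heat shock genes had a median of 0.03, with 1 of 15 higher and 2 lower.

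Among growth factor receptors, 4 of 21 were at least 2-fold higher on MDS/ML and 7 lower (median 0.31, from -0.11 to 0.46 over the alternatives). Of 21 measured genes that are mutated in MDS or myeloid leukemia apart from the epigenetic regulators, 3 were higher and 0 lower (median 0.36). A gene's mutation cannot be read from these levels.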
